A study of Rattus norvegicus with 8 samples.

Results

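The kinesin genes of rat lung endothelial cells were examined 5 days after monocrotaline, as 10 motors of cell division set against 12 motors of cargo transport. Members were the genes whose symbol is Kif with a number, or Kifc with a number, reached through the RefSeq accessions of the array's probes. This gave 28 genes read by 36 probes, and 24 of the 28 were among the 19137 genes tested. The 10 mitotic kinesins were all tested, as were 10 of the 12 cargo transport kinesins and 4 of 6 others with a role in cilia, signalling or microtubule control. The RefSeq table lists 15 further protein-coding kinesins, among them Kif4a, Kif14, Kif1a and Kif2a, that no probe accession reached and that were not analysed here.

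Kinesins are motor proteins that burn ATP to walk along microtubules or to shorten them. Cargo transport kinesins carry vesicles, mitochondria and signalling proteins in cells at rest, whereas mitotic kinesins build the spindle, align chromosomes and divide the cell. Most mitotic kinesins are made in the G2 phase and in mitosis and removed afterwards, so their messengers mark cycling cells, and the endothelium of a healthy adult lung divides little.

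The samples were Sprague-Dawley rats aged 8 to 10 weeks. The 4 rats of the treated group had a subcutaneous injection of monocrotaline (60 mg/kg), a plant alkaloid that injures lung vessels and is used to model pulmonary arterial hypertension, and the 4 control rats had saline. Lungs were digested with collagenase, cells were caught on beads against CD31, an endothelial surface protein that platelets and some leukocytes also carry, and the bound cells were lysed uncultured, and 10 ng of RNA was amplified. The comparison asks which genes of lung endothelial cells differ early in the model.

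Each rat gave 1 single-colour array, and between 70.8% and 77.7% of the non-control spots passed the scanner's test of being well above background. The 8 arrays lay on 1 slide and were scanned on 1 day, with saline in slide row 1 and monocrotaline in row 2, so that row and treatment cannot be told apart. Each slide column held 1 saline and 1 monocrotaline array, of equal number. Of 15 endothelial markers, 12 were read, and all 12 were well above background on 8 of 8 arrays. Their summed level, in units of each array's 75th percentile signal, was 225 to 319 on the saline arrays and 147 to 248 on the monocrotaline arrays. Markers of T and NK cells (15 of 15 read, each above background on 8 of 8 arrays) summed to 3.41 to 8.01 with saline and to 14.2 to 26.4 with monocrotaline, and the groups did not overlap. Markers of airway secretory cells (6 of 7 read) summed to 0.633 to 3.23 with saline and to 1.99 to 25.0 with monocrotaline, where replicates 1 and 3 were highest. In such bulk RNA, fewer cells of a type and less RNA per cell cannot be told apart.

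The 10 mitotic kinesins all had positive log2 fold changes after monocrotaline, and those of the 10 cargo transport kinesins went both ways. Of 10 mitotic kinesins, 6 rose and 0 fell in the limma fit (adjusted p under 0.05, by Benjamini and Hochberg's method over 19137 genes), where 1.37% of the genes tested rose and 0.0627% fell. The 6 were Kif18b, Kif18a, Kif11, Kifc1, Kif20b and Kif15, and the other 4, Kif22, Kif2c, Kif20a and Kif23, had positive log2 fold changes that did not pass. The median log2 fold change was 1.59 over the mitotic kinesins, -0.13 over the 10 cargo transport kinesins and -0.026 over all genes tested. Of the cargo transport kinesins 0 rose and 0 fell. At an unadjusted p under 0.05, 1 was higher (Kif1c) and 1 lower (Kif1b), where 6.72% and 7.23% of all genes were. The difference between the classes was not tested as such.

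**Figure D1:**
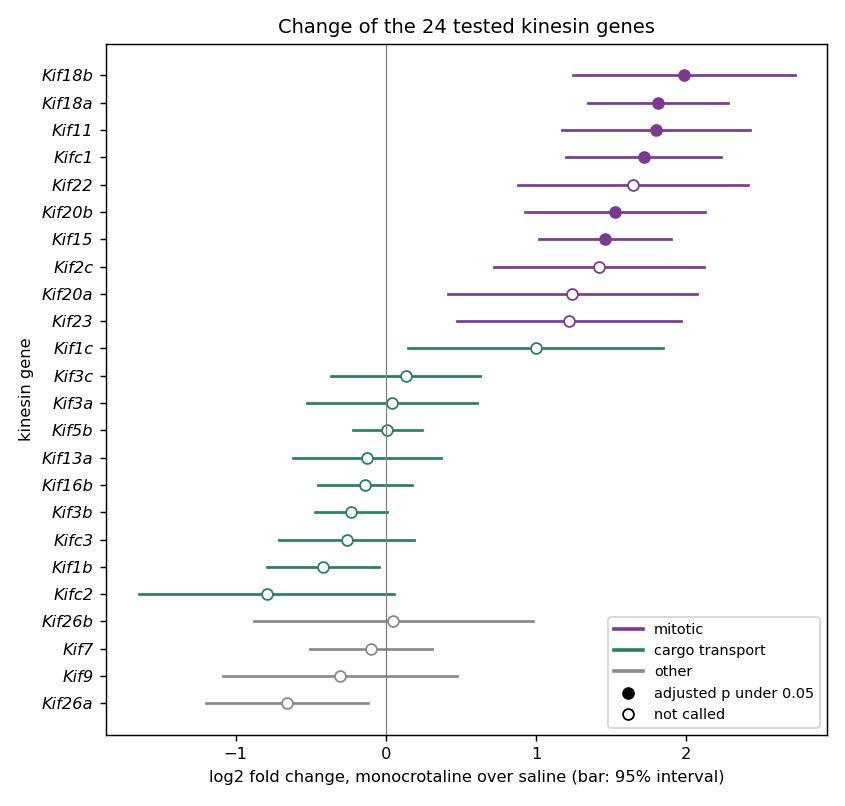
Log2 fold change of monocrotaline over saline for the 24 tested kinesin genes, with 95% intervals from the limma fit as bars, colours for the class and filled points for an adjusted p under 0.05. The 10 mitotic kinesins lie between 1.22 and 1.98, and the cargo transport kinesins between -0.79 and 1.00.

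The promoters of the mitotic kinesins are shown because these genes moved together across the arrays. Sequences are from RefSeq's promoter windows on build GRCr8, of which 23 of the 28 genes have at least 1 (not Kif26a, Kif5a, Kif7, Kifc2 and Kifc3). The windows were searched from 250 bases before to 50 bases after the annotated start site, on both strands. The cell cycle genes homology region (CHR), to which complexes that time late cell cycle genes bind, was searched as TTTGAA and also as TTCGAA, and the CCAAT box as CCAAT. The CHR letters occurred in the windows of 5 of 10 mitotic kinesins (Kif15, Kif20b, Kif22, Kif23 and Kifc1), in 0 of 9 cargo transport kinesins, in 1 of 4 others and in 19.7% of all 33469 windows. CCAAT occurred in 6 of 10, in 3 of 9, in 1 of 4 and in 37.5%. The 1 of 4 was Kif26b for both motifs, and its log2 fold change was 0.048 (SE 0.41). Kif18b, Kif18a and Kif11, with the highest log2 fold changes of the mitotic kinesins, had no CHR match. Kif22 and Kif23, which have the CHR letters, did not pass. A form of the E2F motif (TTT, then 2 bases that are each C or G, then CGC) occurred in Kif18a alone among the mitotic kinesins, in 0 of 9 cargo transport kinesins and in 2.14% of all windows. No match in a kinesin window overlapped a match of another motif. A match is a run of letters and not a shown binding site.

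The 250 bases before the start site are printed for 3 mitotic kinesins with both CHR and CCAAT. Kif23 also has both and is not printed. They are also printed for Kif11, which rose, and for the cargo transport kinesin Kif5b, which was not called. Kif11 and Kif5b alike have CCAAT but no CHR match. Capitals mark the CHR and CCAAT letters on either strand, so that a match on the other strand reads TTCAAA for the first form of CHR and ATTGG for CCAAT. The windows are chr1:241840766-241841015 on the plus strand for Kif20b, chr20:5000679-5000928 on the plus strand for Kifc1, chr1:191080879-191081128 on the minus strand for Kif22, chr1:244536617-244536866 on the plus strand for Kif11 and chr17:56185136-56185385 on the plus strand for Kif5b.
Kif20b: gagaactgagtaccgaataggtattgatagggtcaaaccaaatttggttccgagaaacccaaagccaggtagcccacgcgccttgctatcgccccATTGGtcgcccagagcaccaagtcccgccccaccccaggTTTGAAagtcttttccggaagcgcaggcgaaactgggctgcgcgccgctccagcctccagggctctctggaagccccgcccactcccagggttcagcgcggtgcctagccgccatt
Kifc1: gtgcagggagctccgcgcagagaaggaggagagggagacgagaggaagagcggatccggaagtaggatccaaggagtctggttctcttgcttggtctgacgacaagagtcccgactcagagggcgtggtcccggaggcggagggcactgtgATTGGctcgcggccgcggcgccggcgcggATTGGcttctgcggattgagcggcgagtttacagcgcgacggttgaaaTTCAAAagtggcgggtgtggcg
Kif22: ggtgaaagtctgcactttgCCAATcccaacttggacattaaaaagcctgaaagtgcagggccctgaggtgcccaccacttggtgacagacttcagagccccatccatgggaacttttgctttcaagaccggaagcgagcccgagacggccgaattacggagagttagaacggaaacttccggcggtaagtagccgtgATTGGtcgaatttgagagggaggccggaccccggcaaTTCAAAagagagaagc
Kif11: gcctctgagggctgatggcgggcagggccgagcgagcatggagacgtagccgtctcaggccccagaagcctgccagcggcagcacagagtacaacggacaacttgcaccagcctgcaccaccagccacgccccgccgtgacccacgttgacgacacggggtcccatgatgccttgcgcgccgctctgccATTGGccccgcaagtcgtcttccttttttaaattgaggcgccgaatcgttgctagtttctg
Kif5b: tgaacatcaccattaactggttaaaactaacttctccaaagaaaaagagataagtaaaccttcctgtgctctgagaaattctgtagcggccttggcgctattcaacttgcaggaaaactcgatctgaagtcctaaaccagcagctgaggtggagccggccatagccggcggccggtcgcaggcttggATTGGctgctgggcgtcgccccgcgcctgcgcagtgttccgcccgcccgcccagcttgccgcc
Counted from the start site, the CHR letters of Kifc1 begin at position -22 and its nearest CCAAT match at -70. In Kif22 these positions are -16 and -53, and in Kif23 they are -79 and -88. Kif20b has 1 CHR match at -116 and 2 more in the 50 bases after its start.

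**Figure D2:**
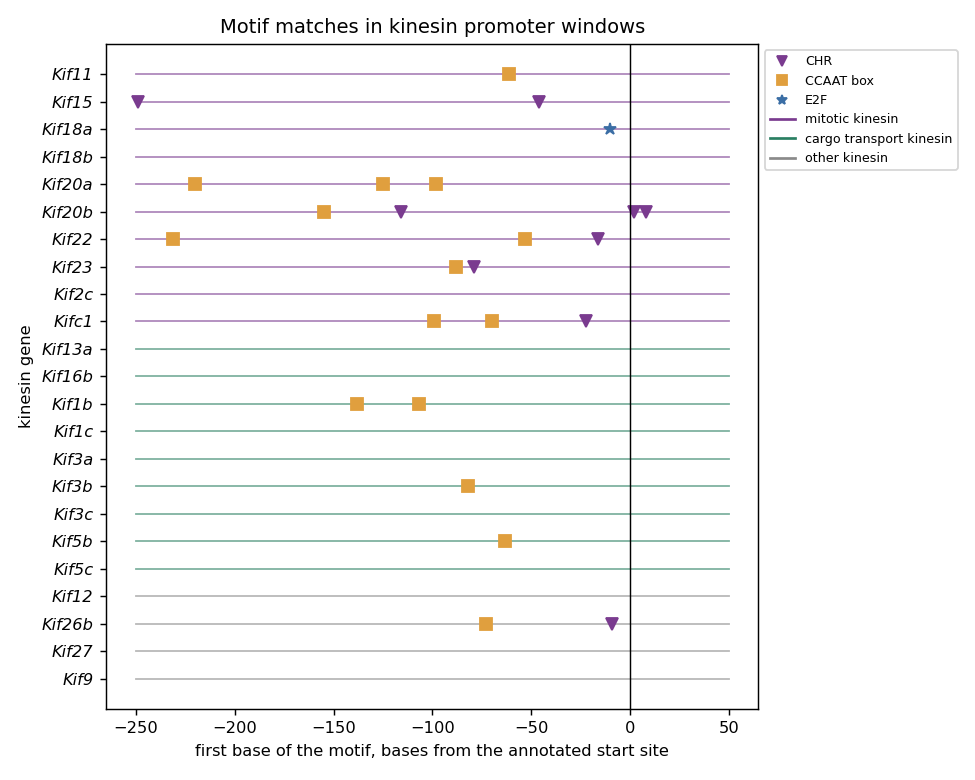
Positions of CHR, CCAAT and E2F letters in the promoter windows of 23 kinesin genes, as the distance of the motif's first base from the annotated start site, with line colour for the class. CHR matches lie in the windows of 5 of 10 mitotic, 0 of 9 cargo transport and 1 of 4 other kinesins, and in 19.7% of all windows.

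Among the kinesins that make the spindle bipolar, Kif11 (Eg5), which pushes the spindle poles apart, read -2.08, -1.97, -2.08 and -1.70 on saline replicates 1 to 4 and 0.44, -0.41, -0.84 and 0.17 on monocrotaline replicates 1 to 4. These are log2 signals on a scale where each array's 75th percentile is 0, as are all levels given here. The 4 monocrotaline arrays lay above the 4 saline arrays, and the limma fit gave a log2 fold change of 1.80 with an SE of 0.27 over 4 arrays a group (adjusted p = 0.0212), or 3.48-fold.

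Kif15, a motor that backs up Kif11 in keeping the poles apart, read -2.94, -2.68, -2.83 and -2.93 with saline and -1.05, -1.59, -1.81 and -1.10 with monocrotaline. The saline arrays spread little (SD 0.12) against the difference of 1.46 ± 0.19 (SE, adjusted p = 0.0138). Kifc1, a motor that walks to the minus end and draws the poles together, read -1.29, -1.25, -1.25 and -1.08 against 1.03, 0.25, -0.017 and 0.74. The difference was 1.72 ± 0.23 (SE, adjusted p = 0.0138), or 3.29-fold. Motors that push the poles apart and a motor that draws them together thus both rose.

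The highest of the 10 changes was that of Kif18b, which trims microtubule plus ends. It read -1.51, -1.40, -1.99 and -1.21 with saline and 1.11, 0.18, -0.31 and 0.84 with monocrotaline. That was a log2 fold change of 1.98 ± 0.32 (SE, adjusted p = 0.0271), or 3.96-fold. Kif18a, which damps chromosome movement at the spindle equator, read -4.46, -4.50, -4.59 and -4.33 against -2.33, -3.07, -2.95 and -2.29, a change of 1.81 ± 0.20 (SE, adjusted p = 0.0111). When background was instead corrected by normexp, the change of Kif18a was 1.09 with 75th percentile scaling and 1.13 with quantile normalization.

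Kif22, a motor on chromosome arms, read 0.34, 0.52, 0.25 and 0.73 with saline and 2.86, 1.75, 1.28 and 2.53 with monocrotaline. The groups did not overlap, but the monocrotaline arrays spread widely (SD 0.72), and the log2 fold change of 1.65 ± 0.33 did not pass (adjusted p = 0.0611). Kif2c (MCAK), which shortens microtubules to correct wrong attachments, read -3.46, -3.56, -3.29 and -3.25 against -1.35, -2.28, -2.76 and -1.48, with a log2 fold change of 1.42 ± 0.31 (adjusted p = 0.0725). A second Kif2c probe, to another transcript accession, gave 1.32 ± 0.31 (SE). Both probes thus differed in the same direction by a like amount.

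The kinesins of the central spindle and of cytokinesis were Kif20a, Kif20b and Kif23. Kif23 (MKLP1), a subunit of the complex that bundles the central spindle, read -0.86, -1.52, -1.25 and -0.85 with saline and 0.53, -0.41, -0.52 and 0.80 with monocrotaline. Kif20a (MKLP2), which brings Aurora B to the central spindle, read -0.96, -0.89, -0.94 and -0.47 against 1.09, -0.024, -0.45 and 1.098. Neither passed, with log2 fold changes of 1.22 ± 0.33 (SE, adjusted p = 0.147) and 1.24 ± 0.36 (adjusted p = 0.178), though the groups did not overlap in either. The lowest monocrotaline array of Kif20a, replicate 3 at -0.45, lay just above saline replicate 4 at -0.47.

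Kif20b, which acts late in cytokinesis, read -3.71, -3.77, -3.89 and -3.53 with saline and -1.68, -2.54, -2.79 and -1.77 with monocrotaline. It changed by 1.53 ± 0.26 (SE, adjusted p = 0.0333). From Kif18b to Kif23 the changes ran from 1.98 to 1.22, with 95% intervals of 1.25 to 2.72 and of 0.47 to 1.97. Neighbours in that order differed by less than their SE. The level of Kif18b minus that of Kif23 was -0.65, 0.11, -0.75 and -0.36 on the saline arrays and 0.58, 0.59, 0.21 and 0.040 on the monocrotaline arrays, and the groups overlapped.

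**Figure D3:**
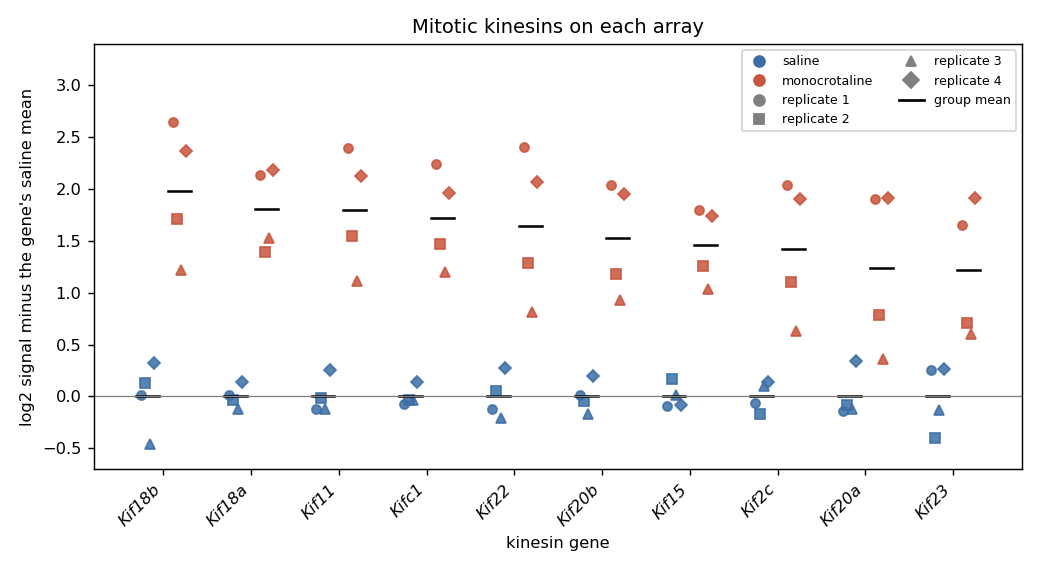
Log2 signal of each mitotic kinesin on each array minus that gene's saline mean, with colour for the group, marker shape for the replicate and a bar for the group mean. In each of the 10 genes the 4 monocrotaline arrays lie above the 4 saline arrays, and replicates 1 and 4 lie above replicates 2 and 3.

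In each of the 10 mitotic kinesins, including the 4 that did not pass, the groups did not overlap, and 8.53% of all genes tested had such a separation in either direction (4.55% with monocrotaline higher and 3.98% with it lower). In each of the 10, monocrotaline replicates 1 and 4 lay above replicates 2 and 3. That order was found in 14.9% of all genes tested and in 2 of 10 cargo transport kinesins, Kif1c and Kif3a. The mean of the 10 over their saline means was 2.13, 1.25, 0.94 and 2.01 on monocrotaline replicates 1 to 4 and -0.031, -0.043, -0.13 and 0.20 on saline replicates 1 to 4. Saline replicate 4 was the highest saline array in 9 of the 10 genes.

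The T and NK, airway and endothelial marker lists, as averages, took other orders. The T and NK cell markers, averaged over the saline mean in the same way, were at 1.29, 0.93, 1.91 and 1.57 on monocrotaline replicates 1 to 4, and -0.83 on saline replicate 4. The airway ciliated markers (10 of 13 read, Spag6 never above background) were at 1.72, 0.28, 1.502 and -0.12, and the airway secretory markers at 3.78, 0.82, 4.198 and 1.41. The endothelial markers were at -0.34, -0.080, -0.70 and -0.797. T and NK cell markers moved with the treatment as the mitotic kinesins did, and their part in the result was not tested. The further lists examined had median log2 fold changes from 0.02 (monocytes) to 1.31 (erythroid cells). Platelet markers averaged 2.24, 0.45, -0.78 and 0.35 on monocrotaline replicates 1 to 4. Their summed level was 14.6, 4.54, 2.14 and 6.08 there and 1.99 to 4.32 with saline. By that sum replicates 1 and 4 lay above 2 and 3, as in the mitotic kinesins. The part of these lists was not tested either.

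**Figure D4:**
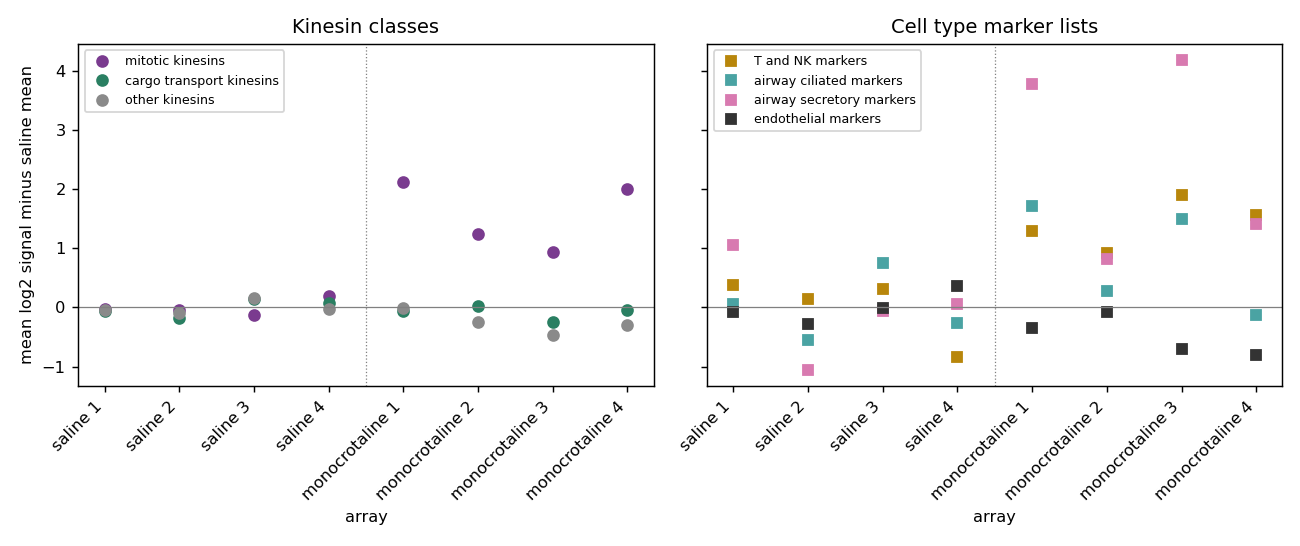
Mean log2 signal minus the saline mean on each array, for the 3 kinesin classes (left) and for markers of T and NK cells, airway ciliated and secretory cells and endothelium (right). Mitotic kinesins are at 0.94 to 2.13 on the monocrotaline arrays, highest on replicates 1 and 4, while T and NK cell markers are highest on replicate 3.

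The mitotic calls depended on single arrays and on the fit. With the slide column, and so the replicate number, as a block, 0 of the 10 mitotic kinesins and 0 of the 20 spindle partners described next passed by limma. Nor did any other of the 19137 genes. Leaving out saline replicate 1 brought the 6 calls to 0, and leaving out any other saline array, or monocrotaline replicate 1, to 3. With monocrotaline replicate 4 left out 1 call was made, with replicate 2 left out 6, and with replicate 3 left out 8. The calls over all genes fell too, from 262 rises to 11 without saline replicate 1 and to 68 without monocrotaline replicate 4. In each of these fits the 10 mitotic kinesins kept a positive log2 fold change, with medians of 1.37 to 1.81. Without monocrotaline replicates 1 and 3, the arrays with high airway markers, the median was 1.62 and 2 of the 10 passed.

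Partners of the mitotic kinesins moved in the same direction. Of 26 spindle, kinetochore and cytokinesis genes in a list outside the kinesins, 20 were tested, 11 rose and 0 fell, with a median log2 fold change of 1.69, against 1.37% and -0.026 over all genes. Kntc1, a kinetochore protein that loads the checkpoint, read -3.11, -2.91, -2.93 and -2.48 with saline and -0.019, -0.69, -0.97 and 0.15 with monocrotaline, a change of 2.48 ± 0.27 (SE, adjusted p = 0.0111). Nuf2, a kinetochore subunit that holds microtubules, changed by 2.05 ± 0.30 (adjusted p = 0.0184). Hmmr, a spindle protein, changed by 2.02 ± 0.38 (adjusted p = 0.0481), and Nusap1, which binds spindle microtubules, by 1.87 ± 0.31 (adjusted p = 0.0304). Leaving out saline replicates 1 to 4 in turn brought the 11 calls to 0, 3, 2 and 3, and leaving out monocrotaline replicate 1 or 4 to 3 or 1. In each of these fits fewer of all genes tested rose as well. The rises over all genes went from 262 to 11 without saline replicate 1 and to 68 without monocrotaline replicate 4. Whether the partners lost calls more readily than other genes was not tested.

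Birc5, Prc1, Cit, Incenp, Tacc3 and Cdca8 had log2 fold changes of 1.17 to 1.64 that did not pass, though their groups did not overlap. The 3 partners with the smallest log2 fold changes did not pass either. Aurora A (Aurka), a kinase of the spindle poles, read 0.33, 0.41, 0.092 and -0.21 with saline and 0.59, -0.48, 0.096 and 0.62 with monocrotaline, so the groups overlapped (log2 fold change 0.052 ± 0.27, SE). Plk1, a kinase that licenses Kif20a and Kif23 at the central spindle, had 0.91 ± 0.33 and cyclin B1 (Ccnb1) 0.91 ± 0.33, and neither passed (adjusted p = 0.284 and 0.283). These 3 genes were picked after their values were seen. Monocrotaline replicates 1 and 4 lay above replicates 2 and 3 in 20 of the 20 partners tested, Aurka included.

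Of the transport kinesins that carry vesicles, Kif1c, a motor of secretory vesicles and integrins, had the highest log2 fold change. It read 0.58, 1.23, 0.89 and 1.76 on saline replicates 1 to 4 and 2.29, 2.24, 1.17 and 2.77 on monocrotaline replicates 1 to 4. Monocrotaline replicates 1, 2 and 4 lay above the saline arrays and replicate 3 among them, and the log2 fold change of 0.997 ± 0.37 (SE, adjusted p = 0.294) did not pass. Kif1c-ps1, a pseudogene in the RefSeq table, could share signal with its probe, as could those of Kif11, Kif13a and Kif18b with theirs, and this was not tested.

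Kif1b, which carries mitochondria and vesicles, read -0.93, -1.09, -0.63 and -0.79 with saline and -1.25, -0.97, -1.36 and -1.54 with monocrotaline. The groups overlapped, with a log2 fold change of -0.42 ± 0.16 (SE, adjusted p = 0.312), and a second probe gave -0.40 ± 0.21. Kif13a, which takes receptor-bearing vesicles to the cell surface, read 1.48, 1.39, 1.62 and 1.84 against 1.72, 1.72, 0.86 and 1.55. Its log2 fold change was -0.12 (95% interval -0.62 to 0.37, adjusted p = 0.84). Kif16b, a motor of early endosomes, had a log2 fold change of -0.14 (95% interval -0.45 to 0.17), and its second probe one of -0.37.

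Kif5b, the conventional kinesin heavy chain found in most cells, had the smallest log2 fold change of the 24. It read -0.74, -0.797, -0.84 and -0.71 with saline and -0.78, -0.80, -0.70 and -0.77 with monocrotaline, with SDs of 0.058 and 0.046. Its log2 fold change was 0.010, and the 95% interval, from -0.22 to 0.24, lies below every change of the mitotic kinesins. The heavy chains of nerve cells, Kif5a and Kif5c, were well above background on 0 of 8 arrays and were not tested.

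The subunits of the kinesin that carries cargo along cilia and in the cytoplasm are Kif3a, Kif3b and Kif3c. Kif3b read 1.94, 1.98, 1.89 and 1.93 with saline and 1.61, 1.78, 1.63 and 1.78 with monocrotaline. It was the 1 cargo transport kinesin whose groups did not overlap, where 8.53% of all genes had no overlap, and its log2 fold change of -0.23 did not pass (SE 0.10, adjusted p = 0.367). Its other probe, with a log2 fold change of -0.087 ± 0.13, did not show that separation. Kif3a, its partner, had a log2 fold change of 0.041 (95% interval -0.53 to 0.61), and Kif3c, the alternative partner, one of 0.13 (-0.37 to 0.63). Whether the 3 subunits differed was not tested.

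The cargo motors of the minus end were Kifc2 and Kifc3. Kifc2 read -0.12, -0.58, 0.92 and -0.64 with saline and -1.43, -0.57, -0.49 and -1.09 with monocrotaline, and saline replicate 3 stood highest. Its log2 fold change of -0.79 ± 0.37 did not pass (adjusted p = 0.386), and without saline replicate 3 it was -0.45. Kifc3, a motor at cell junctions and of vesicles, read 1.01, 0.68, 0.74 and 1.20 against 0.65, 0.97, 0.76 and 0.21. The log2 fold change of Kifc3 was -0.26 ± 0.20 (adjusted p = 0.591).

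**Figure D5:**
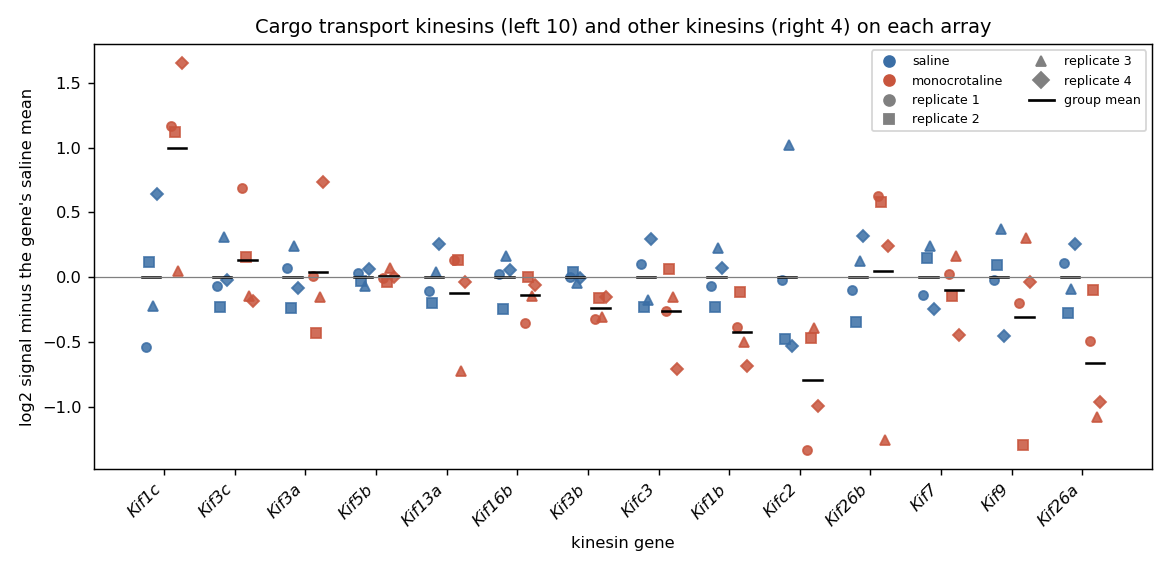
Log2 signal of each cargo transport kinesin (left) and each other tested kinesin (right) on each array minus that gene's saline mean, drawn as for the mitotic kinesins. The groups overlap in 9 of 10 cargo transport kinesins and in 4 of 4 others, and Kif3b is the exception. Of all genes tested, 8.53% had groups that did not overlap.

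The cargo transport kinesins as a class stayed near their saline means, at -0.065, 0.028, -0.24 and -0.042 on monocrotaline replicates 1 to 4 and -0.17 to 0.15 on the saline arrays. The mean of the mitotic kinesins minus that of the cargo transport kinesins was 2.19, 1.22, 1.18 and 2.06 on monocrotaline replicates 1 to 4 and -0.28 to 0.13 on the saline arrays.

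Genes that link transport kinesins to cargo, and the retrograde motor dynein, gave 0 calls by limma among 32 tested of a list of 39. Of all genes tested 1.37% rose and 0.0627% fell. At an unadjusted p under 0.05, 1 was higher and 4 lower, where 6.72% and 7.23% of all genes were. The median log2 fold change of the 32 was -0.17. Bicdl1, an adaptor that pairs dynein with vesicles, read -3.63, -3.71, -3.37 and -4.99 with saline and -2.18, -2.81, -1.81 and -1.90 with monocrotaline. The groups did not overlap, and its log2 fold change of 1.75 ± 0.38 (SE, adjusted p = 0.0720) did not pass. The kinesin light chain Klc4 had -0.54 ± 0.14 (adjusted p = 0.149) and Klc3 -0.63 ± 0.38 (adjusted p = 0.487), and Plekhm2, which recruits kinesin to lysosomes, -0.48 ± 0.24 (adjusted p = 0.415). Over the 32 genes 4 log2 fold changes were positive and 28 negative, beside 8825 and 10312 over all genes. In 7 of the 32 the groups did not overlap, in 2 of these with monocrotaline higher, beside 8.53% and 4.55% of all genes. Kifbp, a binding partner of several kinesins, was at -0.054 ± 0.15.

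Of the other kinesins 0 of 4 tested rose or fell by limma, where 1.37% and 0.0627% of all genes did. At an unadjusted p under 0.05, 0 were higher and 1 lower, where 6.72% and 7.23% of all genes were. Kif26a, a kinesin without motor activity that acts in signalling, read 0.10, -0.28, -0.095 and 0.25 with saline and -0.498, -0.10, -1.08 and -0.97 with monocrotaline. Its log2 fold change was -0.66 ± 0.24 (SE, adjusted p = 0.28), and the lowest arrays, replicates 3 and 4, were also those with the lowest endothelial markers, a relation that was not tested. Kif26b, its relative, read -2.53, -2.77, -2.30 and -2.11 against -1.80, -1.85, -3.69 and -2.18, and replicate 3 alone was far below the rest. Its 2 probes gave 0.048 ± 0.41 and -0.46 ± 0.27 and so differed in sign. Kif7, which relays Hedgehog signals at the cilium tip, read -4.69, -4.40, -4.31 and -4.79 against -4.52, -4.69, -4.38 and -4.99, a log2 fold change of -0.099 ± 0.18.

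Kif9, a motor of motile cilia, was well above background on 2 saline and 3 monocrotaline arrays. It read -6.29, -6.18, -5.90 and -6.73 with saline and -6.47, -7.56, -5.97 and -6.31 with monocrotaline, a log2 fold change of -0.31 ± 0.34 at the edge of detection. Kif27, of motile cilia too, was above background on 1 of 8 arrays by 1 of its 2 probes, and Kif12 on 3 of 8, and neither was tested. Of 16 tested genes of intraflagellar transport, the cargo system of kinesin in cilia, 1 rose and 0 fell, where 1.37% and 0.0627% of all genes did, with a median log2 fold change of -0.081. The riser was Ift80, which read -2.87, -2.68, -2.77 and -2.98 with saline and -2.19, -2.26, -2.05 and -2.02 with monocrotaline, a change of 0.70 ± 0.12 (SE, adjusted p = 0.0335). The list gave 0 calls with quantile normalization, median scaling, either normexp setting, the deposited table, no filter on dim probes, or without any 1 array other than monocrotaline replicate 2. Ift20 was at -0.42 ± 0.15 (adjusted p = 0.277), Ift43 at -0.39 ± 0.25 and Dync2h1, the motor that returns cargo from the cilium tip, at -0.36 ± 0.21, and none of these passed.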

How the data were processed

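Per the labels, RNA of 8 rats was amplified, labelled with Cy3 and read on 1 array each. Per the file headers, the spot signals are an intensity from Agilent Feature Extraction 10.7.3.1, with background and spatial trend removed per array and no scaling between arrays. The flag columns hold other values, 0 or 1, per the file headers. Values in the series table that the authors deposited are log2 of a log2 (2 to the power of each equals the quantile-normalized log2 signal, median absolute difference 9.89e-10), and limma 3.6.9 is listed, with no role, in the submitters' processing notes. That table served as an alternative.

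Control spots and outlier spots were left out, a probe's spots were averaged, and log2 signals were set to a 75th percentile of 0 per array. Probes above background on at least 4 of 8 arrays, in at least 50% of their spots, were kept (21652 of 30367), the brightest probe standing for a gene. Probe accessions were named through the RefSeq table (18006 probes, 15159 symbols). Groups were compared with limma 3.58.1 in R 4.3.3 (moderated test, two-sided, Benjamini-Hochberg over all 19137 genes). The pipeline was tested on simulated data. The members, classes, lists and tests were chosen with earlier results of these data known. Every kinesin found is named, and array values are given for called kinesins, the largest and smallest changes and the brightest cargo motors. Those of Kif22, Kif2c and Kif5b were added after their values were seen. The files and labels do not say more of the rats than 1 sample each, and 4 arrays per group limit the precision. Alternatives were other normalizations, background corrections, filters, probe summaries, variance models, array weights, a replicate block, and leaving out arrays.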

Additional observations from a re-analysis of the deposited data

Results flagged for a closer look

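Kif20a on saline replicate 4, at a scaled log2 signal of -0.47, stood apart from the other 3 saline arrays, which lay between -0.96 and -0.89. Its gap to the nearest of them was 0.87 of the group's range, above Dixon's critical value at the 95% level. It was 1 such case among 48 groups of 4 examined, and chance gives about 1 in 20. Saline replicate 4 was also the highest saline array in 9 of the 10 mitotic kinesins.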

How the results depend on the processing

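With 4 arrays per group, calls depended on the processing, as did the direction of changes near 0. All 10 mitotic kinesins kept a positive log2 fold change in all 20 alternatives. The cargo transport and other kinesins that were tested gave 0 calls in each (Kif9 was not tested in the alternative that asks for signal above background on all 8 arrays). The median of the mitotic minus that of the cargo transport kinesins was 1.72, and 1.33 to 1.90 over the alternatives.

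The number of mitotic kinesins called, 6 as reported, was 0 to 8 when 1 array was left out, 0 with the replicate block and 2 without monocrotaline replicates 1 and 3, an alternative chosen after seeing the data. The 11 calls among the spindle partners became 0 to 13 when 1 array was left out, 17 with array weights, 0 with the replicate block and 2 without monocrotaline replicates 1 and 3. The cilium partner count of 1 was 0 to 1 when 1 array was left out. It was 0 with quantile normalization, median scaling, both normexp settings, the deposited table, no filter, the replicate block, and without monocrotaline replicates 1 and 3. The cargo transport partner count of 0 was 1 with normexp and quantile. Leaving out arrays lowers the number of samples; the other causes were not tested. Over all genes the 262 rises became 0 with the replicate block, 367 with array weights, 11 to 273 when 1 array was left out and 51 without monocrotaline replicates 1 and 3. Same-numbered arrays did not deviate together (correlations of -0.015, -0.23, -0.33 and -0.197), so the replicate number was not taken to pair the rats, though it is also the shared slide column, and the block is therefore the fit with slide column too. Moving Kif2a and Kif24 between classes could change no count, since no probe reached either.

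Kif22 passed with normexp and 75th percentile scaling (limma adjusted p = 0.0439), normexp and quantile (0.0454), trend and robust variance (0.0467), array weights (0.0219) and without monocrotaline replicate 3 (0.0194). Kif2c passed with array weights (0.0295) and without monocrotaline replicate 3 (0.0194). Of 20 alternatives, the call was lost in 12 for Kif20b, 8 for Kif18b, 7 for Kif11, 4 for Kif15 and 3 each for Kif18a and Kifc1.

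Changes near 0 reversed. With quantile normalization Kif26b was at -0.034, Kif3a at -0.045 and Kif5b at -0.031. In the deposited table they were at -0.033, -0.045 and -0.030, and Kif5b was at -0.031 with median scaling. With normexp and quantile Kif26b was at -0.001 and Kif3a at -0.002. With the mean of probes Kif26b was at -0.206, and with array weights Kif3a was at -0.024 and Kif5b at -0.008. Without monocrotaline replicates 1 and 3, Kif13a was at 0.048, Kif3c at -0.012 and Kif5b at -0.017. Leaving out 1 array gave -0.144 to 0.483 for Kif26b, -0.191 to 0.198 for Kif3a, -0.013 to 0.030 for Kif5b, -0.055 to 0.235 for Kif3c, -0.21 to 0.076 for Kif13a, -0.188 to 0.015 for Kif7 and -0.509 to 0.023 for Kif9. Kif5a, Kif5c, Kif12 and Kif27 are limited by signal near background.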
